A study of Mus musculus with 15 samples.

Results

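The genes described here are 10 genes of bile acid synthesis, conjugation and transport in the mouse liver, namely Cyp7a1, Cyp7b1, Cyp8b1, Cyp27a1, Baat, Slc27a5, Slc10a1, Abcb11, Fgfr4 and Klb. They were chosen by name from 21755 annotated protein-coding genes, and 10 of 10 were among the 11200 protein-coding genes with an H3K4me3 island in at least 3 of 15 libraries. H3K4me3, trimethylation of lysine 4 of histone H3, was measured by PAT-ChIP-seq, in which chromatin is prepared from formalin-fixed, paraffin-embedded tissue. The tissue was whole liver of 15 female C57BL/6 mice (C57BL/6J in the methods), with 1 library per mouse and 3 mice on each of 5 diets. Feeding began at 3 months of age and lasted 10 months according to the methods, whereas the labels give an age of 12 months.

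The standard diet (SD), the high-fat diet (HF), the yellow corn diet (YD) and the purple corn diet (RD) were eaten ad libitum. Caloric restriction (CR) mice received a limited daily amount of the standard formula. In YD and RD the maize of the standard formula was replaced by flour of near-isogenic corn hybrids, and the RD hybrid alone carried anthocyanins, so that RD against YD is the comparison for anthocyanins. YD and RD together are called the corn diets below.

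Bile acids are made from cholesterol in hepatocytes along a classic route that starts with Cyp7a1 and an alternative route that starts with Cyp27a1 and continues through Cyp7b1. They are coupled to taurine or glycine, exported into bile, taken up again from the intestine and returned to hepatocytes by way of the portal blood. Fibroblast growth factor from the ileum signals to hepatocytes through Fgfr4 and its partner Klb and represses Cyp7a1. In mice Cyp7b1 is expressed more in male than in female liver, and all mice here were female.

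An island is a stretch of neighbouring 200 bp windows enriched in reads, as called by SICER2 in each library. A gene was given the highest-scoring island within 1 kb of any of its transcription start sites (TSSs), annotated on mm10. The score percentile is the rank of that island among all islands of the same library, where 100 is the highest, and a library without an island at the gene has a value of 0. Scores sum over windows and were not scaled between libraries, so only ranks and widths were compared. An unlisted island means that the enrichment did not pass the call, not that H3K4me3 was absent.

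The 15 lists held 7825 to 33752 islands, and 5589269 to 15449854 reads were recovered behind them from the score steps. An island lay at 32.7 to 54.6% of protein-coding genes in the 9 SD, CR and HF libraries and at 17.5 to 34.7% in the 6 corn libraries. Hepatocyte markers with an island numbered 6 to 10 of 10 per library. Markers of cholangiocytes, Kupffer cells, sinusoidal endothelium and stellate cells numbered 3 to 12 of 21 on HF libraries and 0 to 4 elsewhere. Library names took the form ChIP in 10 libraries and PATChIP in 5. The PATChIP libraries were CR_1, CR_2, HF_2, HF_3 and RD_1, and all SD and YD libraries had the ChIP form. Diet and form were thus partly confounded, as in CR or HF against SD. In whole liver, fewer cells carrying a mark and less of the mark per cell cannot be told apart.

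Sequence before the start site is shown for the members at the ends of the range of H3K4me3 and for Cyp8b1. RefSeq promoter windows of 300 bases (GRCm38.p6, 250 bases before and 50 after a start) were matched for 6 of 10 genes, in 7 windows, of which Slc10a1 has 2. Cyp7a1, Cyp7b1, Baat and Slc27a5 are named only. Bases up to the first annotated start are printed 5′ to 3′ on the strand of the gene. Capitals mark CG dinucleotides and, on either strand, matches to TATAAA or CAAAGTCCA. Fgfr4 had an island in the fewest libraries (4), and its stretch is chr13:55152568-55152639 on the plus strand. Slc10a1 had an island in 15 libraries and its stretch is chr12:80968706-80968955 on the minus strand. That stretch ends at the first annotated start, 80968705, which only 6 of the 15 Slc10a1 islands held. The start at 80968079 lay in 14 islands and that at 80967984 in 15. The Cyp8b1 stretch is chr9:121916306-121916555 on the minus strand. Cyp27a1, chr1:74713285-74713534 on the plus strand, was added after its values were seen because its islands straddled the start in every library.
Fgfr4: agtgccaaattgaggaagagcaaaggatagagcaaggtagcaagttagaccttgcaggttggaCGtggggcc
Slc10a1: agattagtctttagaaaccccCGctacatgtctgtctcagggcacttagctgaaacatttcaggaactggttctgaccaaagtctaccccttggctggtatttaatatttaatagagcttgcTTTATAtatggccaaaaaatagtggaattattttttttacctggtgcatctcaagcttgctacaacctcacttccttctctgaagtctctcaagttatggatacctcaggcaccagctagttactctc
Cyp8b1: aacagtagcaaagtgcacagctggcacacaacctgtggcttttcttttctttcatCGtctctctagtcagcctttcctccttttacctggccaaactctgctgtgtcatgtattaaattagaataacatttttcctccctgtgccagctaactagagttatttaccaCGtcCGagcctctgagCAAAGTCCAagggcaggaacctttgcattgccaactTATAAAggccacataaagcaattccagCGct
Cyp27a1: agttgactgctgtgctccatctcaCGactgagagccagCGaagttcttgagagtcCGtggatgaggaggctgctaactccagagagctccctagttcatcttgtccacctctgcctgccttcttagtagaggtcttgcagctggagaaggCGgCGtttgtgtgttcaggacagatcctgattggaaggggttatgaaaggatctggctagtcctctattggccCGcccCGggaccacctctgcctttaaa

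The whole Fgfr4 window held 20 CG dinucleotides, more than 73.5% of 32851 windows, whose median was 7. The Slc10a1 windows held 2 and 6, which was more than 14.1% and 43.6% of windows. Cyp27a1 and Klb held 10 each, Cyp8b1 held 5 and Abcb11 held 4. The motif TATAAA, searched on both strands, lay in the Cyp8b1 window and in the printed Slc10a1 window and in 13.6% of all windows. CAAAGTCCA, an HNF4A-type site, lay in the Cyp8b1 window and in 0.475% of all windows. AAGGTCA, an NR5A2-type site, lay in 4.72% of all windows and in none of the 7.

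The number of members with an island was 9, 7 and 9 of 10 in the SD mice, 5, 10 and 10 on CR, 10, 8 and 9 on HF, 6, 6 and 4 on YD, and 8, 7 and 5 on RD. The mean was 8.33 ± 1.16 on SD, 8.33 ± 2.89 on CR, 9 ± 1 on HF, 5.33 ± 1.16 on YD and 6.67 ± 1.53 on RD (mean ± standard deviation over mice, n = 3 each). The 3 YD libraries lay below the 3 SD libraries, while the RD and SD ranges overlapped. The same held over all genes tested, of which 47.0, 51.4 and 33.7% had an island on YD against 82.9, 82.8 and 63.2% on SD. Slc10a1, Cyp27a1 and Klb had an island in 15 of 15 libraries, and 18.4% of all genes tested did so. Baat, Slc27a5 and Abcb11 had an island in 13 libraries, Cyp8b1 in 11, Cyp7b1 in 8, Cyp7a1 in 6 and Fgfr4 in 4.

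**Figure D1:**
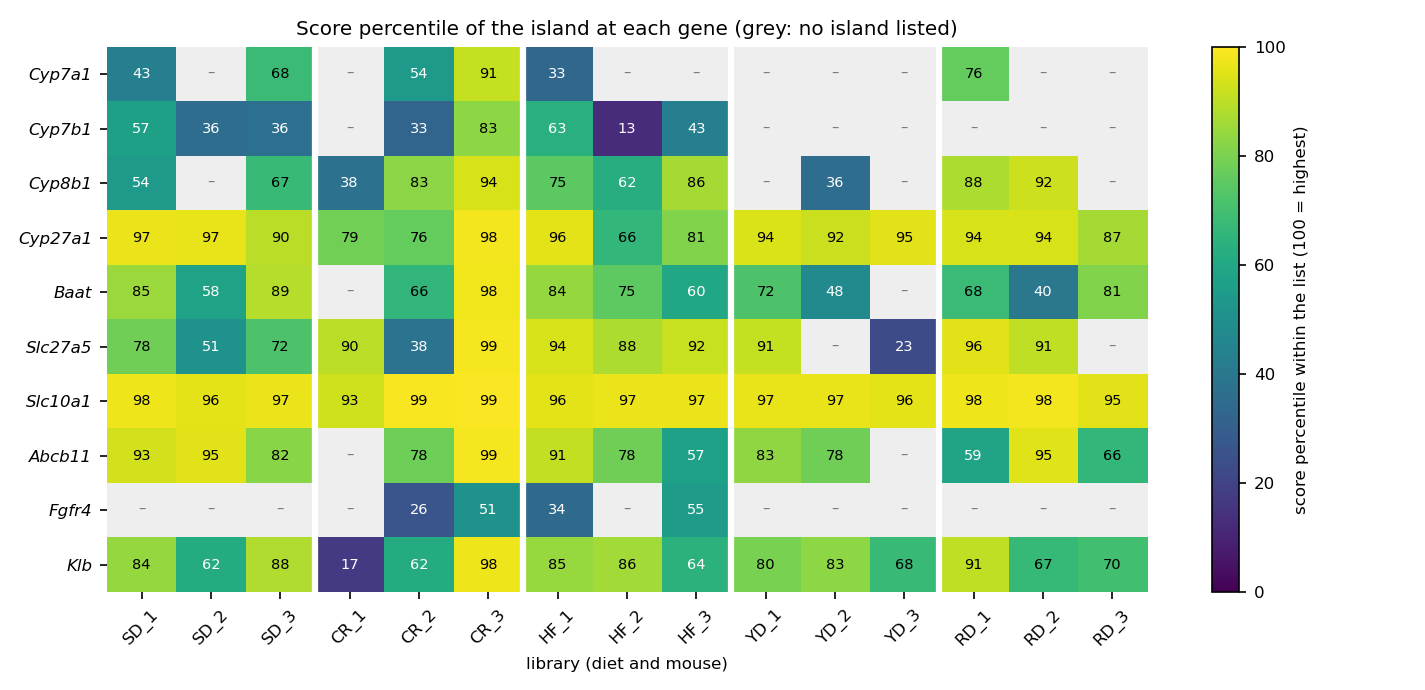
Score percentile of the island at each of the 10 genes (rows) in each library (columns, named by diet and mouse), printed and coloured on a scale from 0 to 100, with grey where no island was listed. Slc10a1 is above 92 in every library, and the Cyp7b1 row is empty in all 6 corn libraries.

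To compare genes per length, the score was divided by the number of 200 bp windows and ranked again in each list. The median score-per-window percentile, over libraries with an island, was 82.1 for Cyp27a1, 81.4 for Abcb11, 76.1 for Slc10a1, 66.0 for Klb and 64.0 for Slc27a5. It was 55.05 for Cyp7a1, 50.8 for Cyp8b1, 48.9 for Cyp7b1, 44.5 for Baat and 42.6 for Fgfr4. Neighbours in this order had ranges over libraries that overlapped, as from 48.4 to 97.1 for Cyp27a1 and from 44.5 to 99.7 for Abcb11. By median width the order was Slc10a1 (4800 bp), Baat (3400), Cyp27a1 (3200), Cyp8b1 (3000), Slc27a5 (2600), Cyp7a1 and Abcb11 (2400), Klb (2200), Cyp7b1 (1700) and Fgfr4 (1400). Over the members the median of these widths was 2500 bp, against 1800 bp over all genes tested.

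Position relative to the start also differed between members. The member island held a TSS in 84 of 113 gene and library pairs (74.3%), against 84.8% of 120328 pairs over all genes tested. Every island at Cyp27a1 (15 of 15), Slc10a1 (15 of 15) and Cyp7b1 (8 of 8) held a TSS. None of the 6 islands at Cyp7a1 did, nor did 3 of the 4 at Fgfr4. At Slc10a1, 6 of the 15 islands held the first annotated TSS, and all 15 held a later one. The islands of 5 of 11 libraries at Cyp8b1 and of 9 of 15 at Klb held a TSS, and the remainder began inside the gene.

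**Figure D2:**
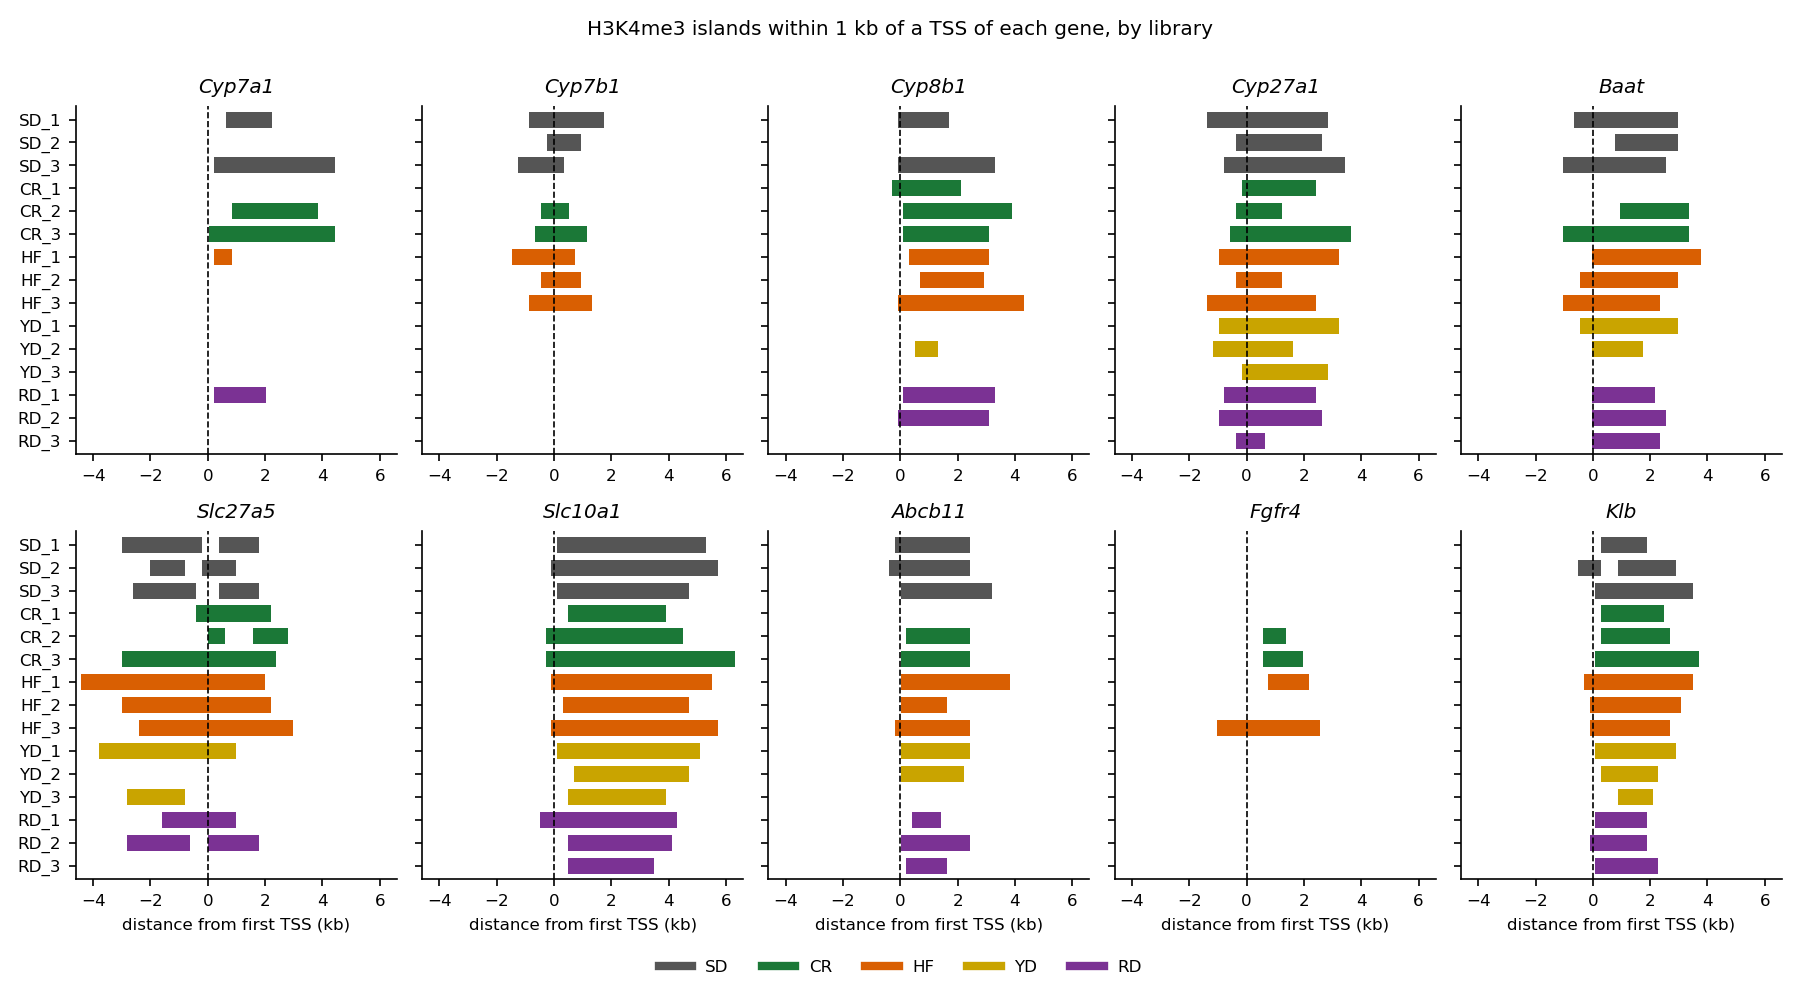
Islands within 1 kb of a TSS of each gene, drawn as bars coloured by diet in 15 rows of libraries, with the distance from the first annotated TSS in kb on the x axis (dashed line at 0, transcription to the right). The Cyp7a1 islands lie to the right of the line, the Cyp27a1 and Cyp7b1 islands cross it, and the Slc10a1 islands extend furthest into the gene.

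Cyp7a1 encodes cholesterol 7α-hydroxylase, the rate-limiting enzyme of the classic route (ENSMUSG00000028240, chr4:6265612-6275633, minus strand). Its percentile was 43.3 and 68.2 in 2 SD mice, 53.6 and 91.1 in 2 CR mice, 33.1 in 1 HF mouse and 76.4 in 1 RD mouse, with no island in the other mice and in none of the YD mice. Their widths were 1600 and 4200 bp on SD, 3000 and 4400 bp on CR, 600 bp on HF and 1800 bp on RD. Each diet with an island at Cyp7a1 also had a mouse without one, so the groups overlapped. The islands began 33 to 833 bp inside the gene and shared no common stretch. With all 15 libraries the corn difference at Cyp7a1 was -19.4 percentile points (SE 15.2, limma adjusted p = 0.264), and no contrast passed. In the 10 libraries of the ChIP form alone, with 1 CR and 1 HF library, the limma difference was -53.8 points. The plain difference of library means there was -47.1 points. In the 5 PATChIP libraries that difference of means went the other way, at 62.97 points, with RD_1 as the single corn mouse.

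Cyp8b1, the sterol 12α-hydroxylase that sets the share of cholic acid, is a short gene of 1950 bp (ENSMUSG00000050445, chr9:121914356-121916305, minus strand). Its percentiles were 53.8 and 67.3 in 2 SD mice, 37.8, 82.7 and 94.0 on CR, 74.99, 62.3 and 86.5 on HF, 35.7 in 1 YD mouse, and 87.6 and 92.4 in 2 RD mice. Widths reached 4400 bp on HF, so that islands ran past the end of the gene, and the single YD island measured 800 bp. HF and CR had an island in 3 of 3 mice, SD and RD in 2 of 3, and YD in 1 of 3. The RD minus YD difference was 48.1 percentile points, but the groups overlapped at mice without an island (two-sided exact permutation p = 0.4, smallest possible 0.1). On log2(width + 200 bp) the corn difference was -1.75 (SE 0.74, limma adjusted p = 0.0629), which did not pass.

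Cyp27a1 encodes the mitochondrial sterol 27-hydroxylase, which starts the alternative route (ENSMUSG00000026170, chr1:74713574-74737892, plus strand). Its percentile was 97.2, 96.7 and 89.8 on SD, 78.7, 76.5 and 98.1 on CR, 96.1, 66.3 and 81.1 on HF, 94.2, 92.1 and 95.3 on YD, and 93.8, 94.0 and 86.7 on RD. The diets overlapped, and the median percentile of 93.8 lies near the top of the scale. The corn difference was 5.98 percentile points (SE 4.45, limma adjusted p = 0.243), where the median over all genes was -25.6. Its sign depended on the form of library name. The difference of library means was -3.1 points within the ChIP form. Within the PATChIP form, with RD_1 as the single corn mouse, it was 18.1 points. All 15 islands shared chr1:74713401-74714200, which contains the first TSS.

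Cyp7b1, the oxysterol 7α-hydroxylase of the alternative route, was the member with the clearest difference between diets (ENSMUSG00000039519, chr3:18071950-18243338, minus strand). Its percentile was 56.6, 35.9 and 36.5 on SD, 32.7 and 82.8 in 2 CR mice, and 63.3, 12.5 and 43.2 on HF. The widths were 2600, 1200 and 1600 bp on SD, 1000 and 1800 bp on CR, and 2200, 1400 and 2200 bp on HF. The 6 corn libraries and CR_1 had no island at Cyp7b1, so 0 of 6 stood against 8 of 9. All 8 islands crossed the single TSS and shared chr3:18243001-18243600. The library RD_2, with 32131 islands the second longest list, also had none at Cyp7b1. It had an island at 65.5% of genes tested, against 63.2 to 98.4% in the SD, CR and HF libraries.

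In the corn diets Cyp7b1 fell by 40.4 percentile points (SE 11.2, limma adjusted p = 0.016) and fell by 2.87 on log2(width + 200 bp) (SE 0.51, limma adjusted p = 0.00234). These fitted values depend on the 0 and the 200 bp given to a missing island. The two-sided exact permutation p was 0.0028 for each measure (n = 6 and 9). Among the 10 libraries of the ChIP form, 0 of 5 corn and 5 of 5 other libraries had an island, so the groups did not overlap (exact permutation p = 0.00794, the smallest possible). The 5 PATChIP libraries held a single corn mouse, and there 0 of 1 and 3 of 4 had an island (exact permutation p = 0.8). Of all genes tested, 240 (2.14%) had no island in the corn libraries and one in at least 8 of the 9 others, a pattern chosen after the Cyp7b1 values were seen. The lower share of genes with an island in the corn libraries moved with this difference, as did the markers of other liver cell types, at 0 to 1 of 21 in the corn libraries and 1 to 12 in the others, and the part of either in it was not tested. The Cyp7b1 calls in the corn diets were lost when the lists were cut to the same number of highest-scoring islands (adjusted p = 0.486 for the percentile and 0.125 for width) or quantile normalized (0.744 and 0.47).

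**Figure D3:**
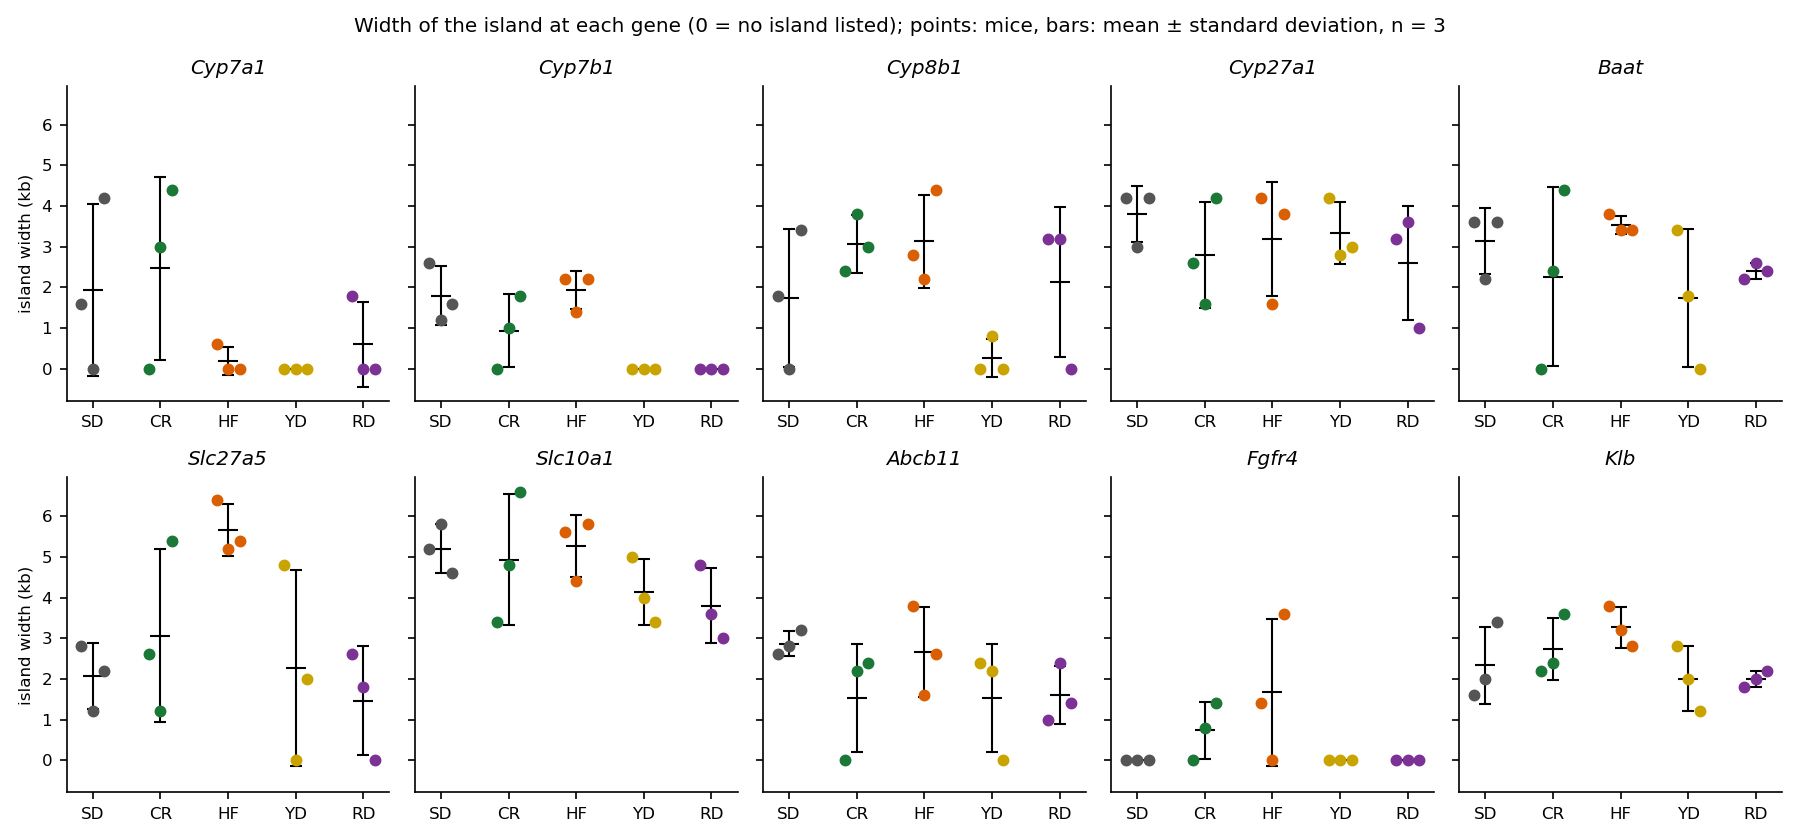
Width in kb of the island at each of the 10 genes by diet, with 1 point per mouse, a value of 0 where no island was listed, and bars for the mean ± standard deviation (n = 3). Cyp7b1 is at 0 in the 6 corn mice, and the 3 HF mice are above the 3 SD mice at Slc27a5.

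Baat and Slc27a5 act in conjugation. Baat, which transfers bile acids to taurine or glycine (ENSMUSG00000039653, chr4:49489422-49506557, minus strand), had percentiles of 84.8, 57.8 and 88.8 on SD, 65.8 and 97.7 in 2 CR mice, 84.1, 75.1 and 60.1 on HF, 72.2 and 48.0 in 2 YD mice, and 68.1, 39.6 and 80.9 on RD. The diets overlapped at Baat. The corn difference was -16.8 percentile points (SE 15.3, limma adjusted p = 0.334).

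Slc27a5, the bile acid CoA ligase that acts before Baat (ENSMUSG00000030382, chr7:12988346-12998192, minus strand), had percentiles of 78.3, 51.1 and 72.1 on SD, 89.7, 38.2 and 98.8 on CR, 93.9, 87.8 and 91.7 on HF, 91.1 and 22.8 in 2 YD mice, and 95.6 and 90.5 in 2 RD mice. The widths were 2800, 1200 and 2200 bp on SD and 6400, 5200 and 5400 bp on HF. The HF mice lay above the SD mice on both measures (exact permutation p = 0.1 each, the smallest that 3 against 3 allows). Over all genes the median HF minus SD difference was 12.8 points and 0.637 in log2 width. The share of all genes separated in this way was not counted. Each SD library listed 2 islands at Slc27a5 and each HF library 1. Summed over islands, the widths were 4200, 2400 and 3600 bp on SD, and the mean difference was 2267 bp in place of 3600 (exact permutation p = 0.1). Against the other 4 diets the HF width difference was 1.79 on the log2 scale (SE 0.84, limma adjusted p = 0.14), which did not pass. The neighbouring gene Trim28 has a TSS within 1 kb of the same island in 12 of 13 libraries, so these values cannot be assigned to Slc27a5 alone. In SD_1, SD_3 and YD_3 the highest-scoring island lay wholly upstream of the first Slc27a5 TSS. An island near Slc27a5 and not near Trim28 was listed in 3 libraries.

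Slc10a1, the sodium-dependent uptake transporter for bile acids, had the widest and highest-ranked island of the 10 genes by median (ENSMUSG00000021135, chr12:80953183-80968705, minus strand). Its percentile was 97.6, 96.0 and 96.9 on SD, 92.7, 99.1 and 99.5 on CR, 95.8, 96.9 and 96.9 on HF, 96.8, 96.6 and 95.7 on YD, and 97.6, 98.3 and 95.4 on RD. Its width was 5200, 5800 and 4600 bp on SD, 3400, 4800 and 6600 bp on CR, 5600, 4400 and 5800 bp on HF, 5000, 4000 and 3400 bp on YD, and 4800, 3600 and 3000 bp on RD. The diets overlapped on both measures. These percentiles lie near the top of their scale, and the rank from the top of the list ran from 136 to 1056. The corn difference was -0.071 percentile points (SE 1.71, limma adjusted p = 0.973) and -0.36 in log2 width (SE 0.18, limma adjusted p = 0.112). On the widths in bp the two-sided exact permutation p of that comparison was 0.034, without adjustment (n = 6 and 9). All 15 islands shared the 2800 bp of chr12:80965201-80968000, which contain the annotated start at position 80967984. The median percentile of Slc10a1 exceeded that of 97.9% of the genes tested, and its median width that of 98.9%.

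Abcb11, the canalicular export pump for bile salts (ENSMUSG00000027048, chr2:69238282-69342616, minus strand), had percentiles of 93.1, 95.4 and 82.0 on SD, 78.05 and 98.7 in 2 CR mice, 90.8, 78.4 and 57.2 on HF, 83.3 and 78.5 in 2 YD mice, and 58.6, 95.1 and 66.4 on RD. Its width was 2600, 2800 and 3200 bp on SD, 2200 and 2400 bp on CR, 3800, 1600 and 2600 bp on HF, 2400 and 2200 bp on YD, and 1000, 2400 and 1400 bp on RD. The SD widths lay above those of every CR, YD and RD mouse (exact permutation p = 0.1 for each pair, the smallest possible). They overlapped those of HF (exact permutation p = 0.9), and the percentiles overlapped. Over all genes the median difference from SD in log2 width was 0.195 on CR, -1.07 on YD and -0.53 on RD. The share of all genes separated in this way was not counted. Abcb11 passed none of the limma fits, with a corn difference of -0.61 in log2 width (SE 0.64, limma adjusted p = 0.39).

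Fgfr4 and Klb form the receptor for the ileal signal. Fgfr4 (ENSMUSG00000005320, chr13:55152640-55168759, plus strand) had an island in 2 CR mice, with percentiles of 26.5 and 51.2, and in 2 HF mice, with 34.4 and 54.9, and in no SD, YD or RD mouse. These islands measured 800 and 1400 bp on CR and 1400 and 3600 bp on HF. In 3 of the 4 libraries they began 561 to 761 bp after the first TSS. The difference of HF from the other 4 diets was 1.97 in log2 width (SE 0.72, limma adjusted p = 0.0811), which did not pass. Among the fits leaving out 1 library it passed only without HF_2, the HF mouse with no island, at 3.18 (limma adjusted p = 0.00683). Every HF mouse left in that fit had an island because of that choice. Both HF libraries with an island at Fgfr4 also had the most markers of other liver cell types, 12 and 8 of 21 against 3 in HF_2. CR_2 and CR_3, which also had an island at Fgfr4, had 3 and 4 of 21. The share of genes tested with an island was 98.4% in HF_1, 95.6% in HF_3, 91.35% in CR_3 and 89.2% in CR_2. It was 91.3% in HF_2 and 63.2 to 82.9% in the SD libraries, all without an island at Fgfr4. The part of other cell types, or of this share, was not tested.

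Klb (ENSMUSG00000029195, chr5:65348314-65384007, plus strand) had an island in every library, with percentiles of 84.3, 61.6 and 88.0 on SD, 16.8, 61.7 and 97.6 on CR, 84.6, 86.2 and 64.4 on HF, 79.8, 83.2 and 67.6 on YD, and 90.5, 66.96 and 69.6 on RD. The diets overlapped, and CR held both the lowest and the highest Klb value. The corn difference was 4.58 percentile points (SE 10.47, limma adjusted p = 0.698). As a difference of library means it was -9.79 points within the ChIP form. Within the PATChIP form, with RD_1 as the single corn mouse, it was 33.2 points.

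Differences between diets were tested by limma over all 11200 genes with adjustment over all of them, and the members' counts are read against the share of all genes called. For the score percentile, no member passed for CR against SD (0% of all genes, and 0 members at an unadjusted p under 0.05), for HF against SD (0.964%), for YD against SD (2.17%), for RD against SD (0%), for RD against YD (0.125%) or for HF against the mean of the other 4 diets (5.54%). At an unadjusted p under 0.05 there was 1 member, Fgfr4 or Cyp7b1, in each of these but CR against SD and RD against YD, which had 0. For the corn diets against the other 3 diets, 1 of 10 members was called, Cyp7b1, where 41.1% of all genes were.

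For island width, no member passed for CR against SD (0.134% of all genes), HF against SD (2.84%), RD against SD (0.241%) or RD against YD (1.01%), with 0, 1, 1 and 0 members at an unadjusted p under 0.05. In YD against SD, 1 member passed against a background of 5.97%, and it was Cyp7b1, which fell by 3.26 in log2 width (SE 0.79, limma adjusted p = 0.0297). The same fitted difference in RD against SD had a limma adjusted p of 0.118. Cyp7b1 alone also passed for HF against the other 4 diets (10% of all genes), where it rose by 2.08 (SE 0.63, limma adjusted p = 0.0485). That call was lost in 10 of the 15 fits leaving out 1 library (adjusted p up to 0.212) and under 10 of 16 other settings, the replicate block among them, and the other 4 diets include the 6 corn libraries without an island. HF and SD themselves had means of 1933 ± 462 and 1800 ± 721 bp at Cyp7b1 (± standard deviation, n = 3), which overlapped. In the corn diets 1 of 10 members passed for width, again Cyp7b1, against 42.4% of all genes.

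The difference between the share of members called in the corn diets and the share of all genes was not tested. Within the ChIP form of library name, the median corn difference over all genes was -33.6 points and -1.41 in log2 width. That form holds 1 CR and 1 HF library, so calls of members are not counted there. Of the genes called in the corn diets, 4595 fell and 7 rose in percentile, a split that became 32 and 426 under quantile normalization, and 4750 fell and 2 rose in width, which became 13 and 5. The median corn difference was -17.7 percentile points over the members and -25.6 over all genes, and -1.01 against -1.24 in log2 width. For HF against the other diets it was 10.4 over the members and 22.1 over all genes, and 0.89 against 1.19 in log2 width.

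**Figure D4:**
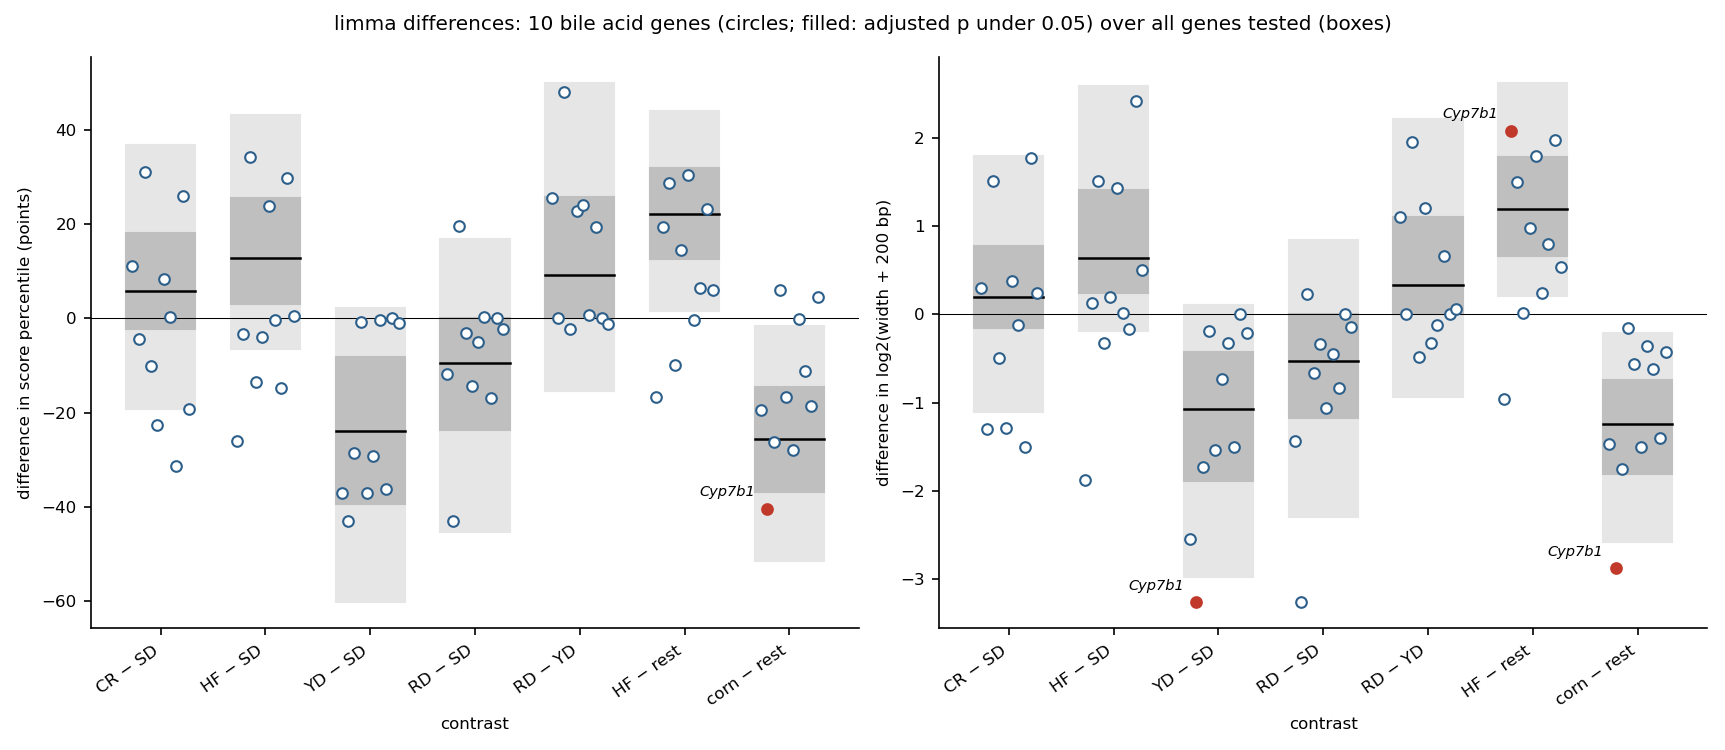
Differences fitted by limma for 7 contrasts (x axis), in percentile points (left) and in log2(width + 200 bp) (right). Circles are the 10 genes, filled and named where the adjusted p was under 0.05, and boxes give the median (line) and the 25 to 75% and 5 to 95% ranges of all 11200 genes. Cyp7b1 is the filled circle in each case, and most members lie inside the range of all genes.

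Islands were also counted as gained or lost when a diet had one in at least 2 of 3 mice and the other diet in none. Fgfr4 was the member gained in CR against SD, where 3.28% of all genes were gained, and the member gained in HF against SD, where 6.42% were. No member was lost in CR (0.616%) or HF (0.107%). In YD against SD, Cyp7a1 and Cyp7b1 were lost, or 2 of 10 against 18.3% of all genes, and no member was gained (0.0625%). In RD against SD, Cyp7b1 was lost (7.57%) and no member was gained (0.321%). No member was gained (7.29%) or lost (0.464%) in RD against YD.

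A list of 32 other bile acid genes was examined in the same way, of which 26 were among the genes tested. Between 14 and 25 of them had an island per library (median 22), with 25 in each HF library and 14 to 21 on YD. Islands lay in 15 libraries at 8 of these genes. No library had an island at Cyp46a1 and Ch25h, sterol hydroxylases of brain and immune cells, at Slco1a1, an uptake carrier enriched in male liver, or at Slc51a and Slc51b, the subunits of the basolateral exporter.

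In the corn diets 6 of the 26 other genes fell in percentile, and 6 in width, against 41.1% and 42.4% of all genes. The oxysterol 7α-hydroxylase Cyp39a1 fell by 39.3 points and fell by 2.29 in log2 width (limma adjusted p = 0.0429 and 0.0321), calls that were lost in 12 and 10 of the 15 fits leaving out 1 library. Akr1d1, the steroid 5β-reductase of bile acid synthesis, fell by 42.3 points and fell by 2.01 (limma adjusted p = 0.0385 and 0.0411), calls lost in 10 and 11 of those 15 fits. Ephx1, an epoxide hydrolase also linked to bile acid uptake, had an island in 3, 2 and 2 mice of SD, CR and HF and in no corn mouse, and fell by 32.0 points and fell by 2.41 (limma adjusted p = 0.0256 and 0.011), calls lost in none of the 15. Mafg, a transcriptional repressor of bile acid genes, fell by 41.9 points and fell by 2.42 (limma adjusted p = 0.0316 and 0.0054), of which the percentile call was lost in 7 of the 15 and the width call in none.

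Acox2, the peroxisomal side chain oxidase, and Cyp2c70, which makes muricholic acids, fell in percentile only, by 35.6 and 41.9 points (limma adjusted p = 0.0356 and 0.0445), calls lost in 11 and 10 of the 15. Hnf4a, a hepatocyte transcription factor with an island in 15 libraries, fell by 0.66 in log2 width (limma adjusted p = 0.0337), a call lost in 9 of the 15. None of these 7 genes passed the tests of single diets against SD. Their corn calls were also lost under other settings. For percentile, Ephx1 did not pass in 3 of 14 and reversed in 1 more. Acox2 did not pass in 5 of 15 and reversed in 1 more. Cyp39a1 did not pass in 9 of 15, Akr1d1 in 7 of 15, Mafg in 7 of 16 and Cyp2c70 in 11 of 16. For width, Ephx1 did not pass in 4 of 15 and Akr1d1 in 6 of 15. Cyp39a1 did not in 7 of 16, Hnf4a in 5 of 16 and Mafg in 2 of 16.

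Abcc4, a basolateral bile acid exporter, was the gene of this list that passed for HF. It had islands of 600, 3600 and 1600 bp in the HF mice, of 1000 bp in 1 CR mouse and in no other mouse. Its width rose by 3.14 on the log2 scale against SD (limma adjusted p = 0.0229), where 2.84% of all genes were called. Against the other 4 diets it rose by 2.92 (limma adjusted p = 0.00467), where 10% were called. Abcc4 reached the 3 libraries needed for testing only through the HF mice. Its adjusted p-values for HF are therefore not separate support for a difference. The Abcc4 width fell by 1.33 in the corn diets (limma adjusted p = 0.0308), where only the HF and CR islands enter the difference. Leaving out 1 library ended these calls in 3, 0 and 4 of the 15 fits, in that order. Among genes counted as gained or lost, Abcc4 was gained in HF, Ephx1 was lost in both YD and RD, and Cyp39a1 was lost in RD, each against SD.

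**Figure D5:**
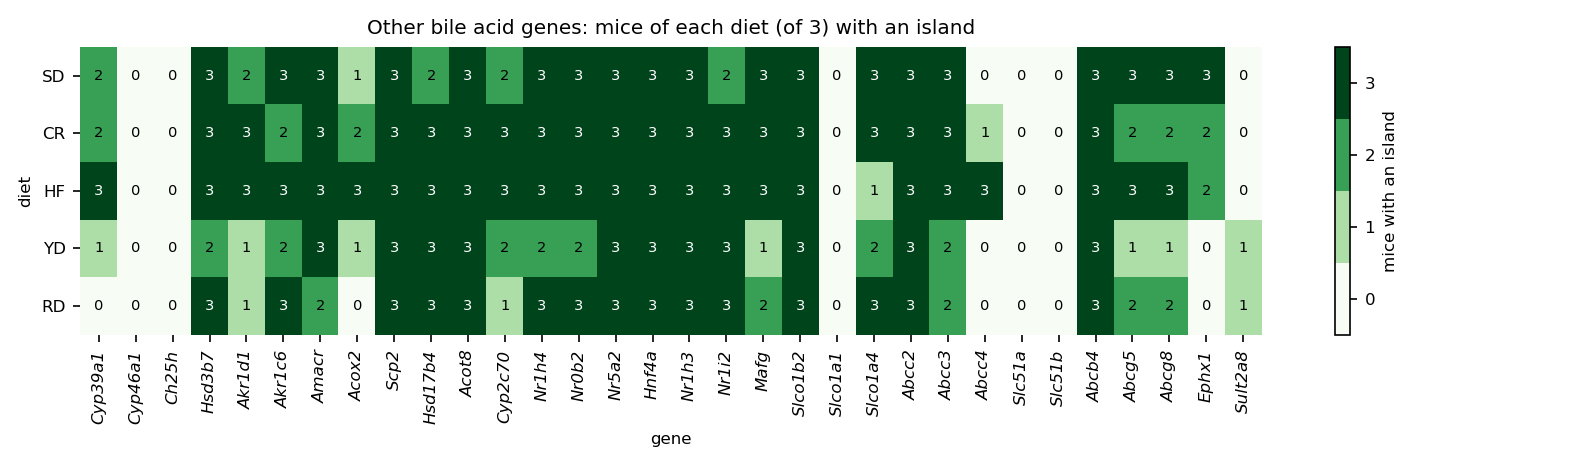
Number of mice (of 3) with an island at each of 32 other bile acid genes (columns) in each diet (rows), printed and coloured from 0 to 3. The columns of 5 genes are at 0 in every diet, Abcc4 reaches 3 on HF, and Ephx1 is at 0 on YD and RD.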

How the data were processed

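H3K4me3 was profiled by PAT-ChIP-seq in 15 mouse livers, and the diet of each mouse was taken from the sample labels. Single 50 bp reads had been mapped by the authors with BWA (mm10) and cleared of duplicates and of reads with a MAPQ under 1. The authors called islands in each library with SICER2 (window 200 bp, gap 400 bp, FDR under 0.05). The deposited score of an island sums, over its enriched windows, a log Poisson probability of the read count, and the other deposited columns are positions. Start and end were converted to 1-based coordinates. No read counts were used, so errors are those between mice, and an interval for counting error is not given. Reads were recovered from scores of single-window islands, assuming an effective genome fraction of 0.74.

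TSSs came from GENCODE M21 (139486 transcripts of 53843 genes). Percentiles and log2(width + 200 bp) were fitted by limma 3.58.1 in R 4.3.3 with 5 diet means in 1 fit (lmFit, contrasts.fit, eBayes with trend), 7 contrasts and Benjamini-Hochberg adjustment over 11200 genes at 0.05. Scripts were tested on simulated data with 200 changed genes. Exact permutation tests were two-sided and run for each member, measure and contrast, without adjustment. Tables were handled in pandas 2.3.3 and numpy 2.4.6 under Python 3.11.15, with scipy 1.17.1 for the read estimates and self-tests and matplotlib 3.10.9 for plots.

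The 10 members and all gene lists were chosen with earlier results of these data known. All members were named, and of the other bile acid genes those without an island in any library and at most 8 past a threshold. Promoters were printed for the members with islands in the fewest and the most libraries (of the 3 genes tied at 15, that with the highest median percentile) and for Cyp7a1 and Cyp8b1 where the RefSeq table held them. Nothing in the labels says how libraries were assigned to sequencing runs. Alternatives changed the TSS distance, the island and gene filters, the scaling, the pseudocount, the treatment of missing islands, the form of the library name, the replicate block and the libraries included.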

Additional observations from a re-analysis of the deposited data

How the results depend on the processing

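The fall of Cyp7b1 in the corn diets passed the threshold in all 15 fits that left out 1 library (adjusted p from 0.00319 to 0.0355 for percentile and from 0.000156 to 0.00696 for width). Among the other settings it did not pass for islands at or above the median score (0.275 and 0.19), the same number of highest-scoring islands (0.486 and 0.125) and quantile normalization (0.744 and 0.47), nor for percentile with no filter on genes (0.0714). The cause was not tested. The number of members called for percentile in the corn diets was then 0 in each, and 0 with missing islands left out, where Cyp7b1 has no corn value. It was 2 with the form of the library name as a covariate, where Fgfr4 also passed. The ChIP form alone leaves 1 CR and 1 HF library, so calls of members are not counted there. Its limma corn difference was -53.8 points at Cyp7a1 and -28.55 at Fgfr4. In that form Fgfr4 had an island in CR_3 and HF_1 only. The plain difference of library means at Fgfr4 was -17.1 points (two-sided exact permutation p = 0.444, n = 5 and 5). For width in the corn diets the number of members called was 0 at the median score, the same number of islands and quantile normalization. It was 2 with the form as a covariate (with Fgfr4) and at a pseudocount of 1000 bp (with Cyp8b1). In the ChIP form only, Fgfr4 differed by 51.2 points in CR against SD and by 34.45 in HF against SD. In HF against the rest it differed by 21.65 points. In log2 width these differences were 3.0, 3.0 and 2.25. They rest on 1 CR and 1 HF library, assumed to vary like the other groups. The Cyp7b1 difference in RD against SD was -3.26 in log2 width in that form.

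Width calls in YD against SD were 0 at the median score, the same number of islands, no gene filter, centring on the library median and quantile normalization. Width calls in HF against the rest were 0 in these and with a TSS within 3 kb, a TSS inside the island, all annotated genes and the replicate block. Same-numbered mice of different diets were no more alike than others (mean correlation of deviations -0.00461 over 30 pairs against 0.00224), and 2 of 15 libraries correlated best with their own number, so the numbers were not used as a pairing, and the block changed no other count of members. Under quantile normalization 3 corn differences reversed without passing, at 1.95 points for Acox2, 0.365 points for Ephx1 and 0.23 in log2 width for Abcc4.

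Gained or lost members were 0 in CR and in HF against SD with a TSS inside the island, the median score, the same number of islands or an island in all 3 mice. In YD against SD they were 1 at the median score and in all 3 mice and 0 at the same number of islands. In RD against SD they were 0 at the median score and the same number of islands, and in RD against YD 1 within 3 kb and at the median score. Leaving out 1 library gave 0 to 1 members for percentile in HF against the rest and 1 to 2 in the corn diets. For width it gave 0 to 1 in HF, YD and RD against SD and in HF against the rest, and 1 to 3 in the corn diets. The members added in the corn diets were Fgfr4 without CR_1 or HF_2 (both measures) and, for width, Cyp7a1 without CR_1, Cyp8b1 without SD_2, YD_2 or RD_2, and Slc27a5 without YD_1. Gained or lost members ranged from 0 to 1 in CR and HF against SD and RD against YD, from 1 to 3 in YD and from 1 to 2 in RD against SD, with Fgfr4 no longer gained in CR without CR_2 or CR_3 and in HF without HF_1 or HF_3 (without HF_1, Cyp7a1 was the member lost). The Cyp7b1 width call was lost for YD against SD without SD_1, SD_2, HF_3 or YD_3 (adjusted p up to 0.0981), and for HF against the rest in 10 of 15 such fits (up to 0.212).

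Over all genes the number called depended on the setting. For percentile it was 108 in HF against SD (0 to 1083 over 16 alternatives), 243 in YD (0 to 301), 0 in CR (0 to 741), 0 in RD (0 to 6), 14 in RD against YD (0 to 136), 620 in HF against the rest (0 to 1354) and 4602 in the corn diets (17 to 5575). For width it was 15 in CR (0 to 390), 318 in HF (2 to 619), 669 in YD (0 to 740) and 27 in RD against SD (0 to 212), 113 in RD against YD (0 to 134), 1120 in HF against the rest (6 to 2026) and 4752 in the corn diets (18 to 5414). Centring on the library median moved the median corn difference of all genes from -25.6 to -21.0 points and from -1.24 to -0.93 in log2 width. Lists without read counts give no depth behind a single missing island.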

Other observations

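Slc10a2, the ileal bile acid uptake carrier also found in cholangiocytes, had an island in HF_1 (2400 bp, percentile 47.7) and HF_3 (2800 bp, percentile 42.3) and in no other library. Fgf15, Fabp6, Cdx2 and Vil1, the other genes of the ileum list, had none in any library. HF_1 and HF_3 are the HF libraries with islands at Fgfr4. They also had an island at the largest shares of genes tested, 98.4 and 95.6%, and the part of this share was not tested.

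Alb, which encodes albumin, the main plasma protein made by hepatocytes, had an island in 8 of 15 libraries. It was listed in 3 of 3 HF and 3 of 3 YD mice, in 1 SD mouse and 1 RD mouse, and in no CR mouse, with widths of 1200 to 5400 bp. Slc10a1 had an island in every one of the libraries that lacked one at Alb. The gene was chosen after its values were seen, and no test was made.

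Sult2a8, a bile acid sulfotransferase of the list of other bile acid genes, was listed only in YD_1 (percentile 15.9, 2800 bp) and RD_1 (percentile 41.1, 1200 bp), and so had too few islands to be tested.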
